A study of Mus musculus with 8 samples.

Results

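The 8 transcriptional regulators Hnf4a, Gata4, Gata6, Foxa1, Foxa2, Foxa3, Rhox5 and Cited1, all known for their place in visceral endoderm, were followed in mouse yolk sac at embryonic day 9.5 after Notch signaling had been raised or blocked in the endothelium. They were chosen by name, as the probe sets of the array that map to 1 gene with one of these symbols, and they are 8 of 18194 genes on the array. Where a gene had several probe sets, the brightest on average over the 8 arrays was used and the others served as a check. EC-N1ICD yolk sacs, the N1ICD model (Tie2 Tg/0; ROSA +/N1ICD, strain C57BL6), made the intracellular domain of Notch1 after Cre had removed a stop cassette, and their wild type (Tie2 0/0; ROSA +/+) had the same strain. EC-Rbpj-KO yolk sacs, the knockout (Tie2-Cre; Rbpj flox/flox, strain given as mixed), carried a deletion of Rbpj, which encodes the DNA-binding partner of Notch, in the cells in which Cre acts. For their wild type, also of mixed strain, the labels give no genotype. The parents of that wild type carried a floxed Rbpj allele, and the father carried Tie2-Cre, so whether the wild type embryos carried either is not known from the labels. Each group had 2 arrays of total RNA from embryos of the same age, and no agent was given. Tie2-Cre acts mainly in endothelium and blood cells, whereas the RNA came from the whole yolk sac, in which the endoderm is a separate layer.

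Visceral endoderm is the outer epithelium of the yolk sac, which takes up maternal nutrients and secretes plasma proteins and lipoproteins as the liver does later. GATA6 and GATA4 bind GATA sites and act early in extraembryonic endoderm, HNF4A is a nuclear receptor that drives apolipoprotein and transport protein genes, and the FOXA proteins are fork head factors that open chromatin at many of the same genes. Rhox5 is a homeobox gene of the Rhox cluster on chromosome X, and Cited1 encodes a coactivator that binds CBP and p300 and has no DNA-binding domain of its own.

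The targeted gene matched the labels: Rbpj signal was 470 and 497 in the knockout, where wild type had 984 and 919, and it fell by 0.98 on the log2 scale (adjusted p = 0.00866). The Notch target Hey1 measured 319 and 298 in the N1ICD model (wild type, 147 and 103) and rose by 1.33 (adjusted p = 0.0364). In the knockout Hey1 measured 66 and 69, beside 72 and 70 in wild type (log2 fold change -0.07, adjusted p = 0.906). Notch1 had log2 fold changes of 0.34 in the N1ICD model and -0.48 in the knockout (adjusted p of 0.554 and 0.207 in limma). Heyl was too dim to be tested, at 71 and 103 in the N1ICD model (wild type, 49 and 33) and 17 and 63 in the knockout (wild type, 30 and 47). All 21 visceral endoderm products on the array passed the filter on low signals, beside 10913 of all 18194 genes. The parietal endoderm, erythroid and macrophage lists also passed in full (8, 9 and 7 genes on the array), so the filter does not identify the tissue. Xist, which is made in female cells, stood at 3600 and 3730 on the N1ICD arrays and at 2005 on EC-Rbpj-KO replicate 1, and between 77 and 96 on the other 5 arrays. The Y-linked gene Eif2s3y stood at 9, 9 and 12 on the first 3 arrays and between 702 and 870 on the others. Kdm5d, also Y-linked, stood at 10, 10 and 8 on those 3 and between 143 and 268 on the others. Sex therefore differs between EC-N1ICD and its wild type, and both sexes are present in the knockout group. The median signal of an array, over every probe set, was 38 to 51.

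One member passed the test after loss of RBPJ: Cited1 fell, to 0.574 of its wild type signal. The other 7 did not pass, and the largest values among them were those of Foxa3 (2.10-fold of wild type, adjusted p = 0.0510) and Foxa1 (1.66-fold, adjusted p = 0.0885). All 8 members passed the filter on low signals, and 1 of 8 with an adjusted p under 0.05 stands beside 4.96% of the 10913 genes tested (2% higher, 2.96% lower). The 218 higher and 323 lower genes behind this share became 375 and 300 after median centring. At an unadjusted p under 0.05, 2 members were higher and 1 was lower, against 19.9% of all tested genes in either direction. The median log2 fold change of the members was -0.06, against -0.02 over all tested genes. Fewer cells of a type and less RNA in each cell cannot be told apart in RNA of whole tissue, here or in any value that follows.

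**Figure D1:**
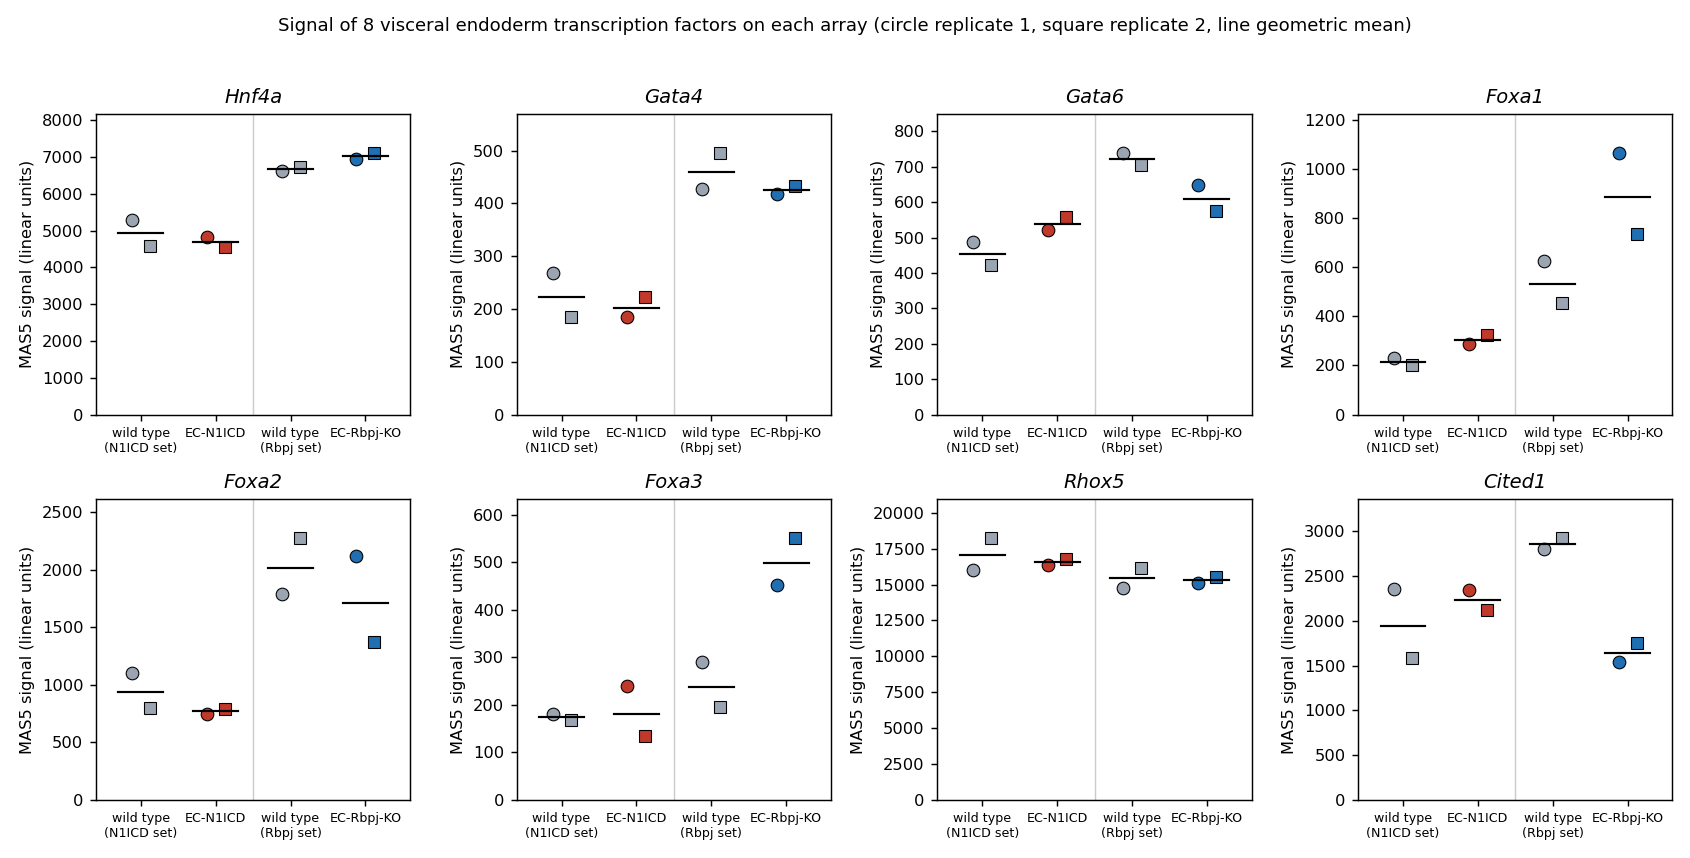
MAS5 signal (linear units, axis from 0) of each of the 8 genes on each of the 8 arrays, with wild type in grey, EC-N1ICD in red and EC-Rbpj-KO in blue. Circles are replicate 1, squares replicate 2 and lines geometric means. Cited1 on both EC-Rbpj-KO arrays (1537 and 1749) lies below both of its wild type arrays (2798 and 2920), and Foxa3 and Foxa1 lie above theirs.

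Cited1 signal was 1537 and 1749 on the knockout arrays and 2798 and 2920 in their wild type. Both mutant arrays lay well below both wild type arrays, with a gap larger than the spread inside either group. Cited1 fell by 0.80 on the log2 scale (SE 0.18, 95% confidence interval -1.19 to -0.41, adjusted p = 0.0268, lower on 2 of 2 arrays). In the N1ICD model, its signal was 2347 and 2120 (2360 and 1589 in wild type), so the groups overlapped, and the log2 fold change was 0.20 (interval -0.19 to 0.60, adjusted p = 0.748). The difference between the responses to the 2 models was 1.01 on the log2 scale (interval 0.45 to 1.56), with an unadjusted p of 0.00200 and an adjusted p of 0.167 in limma, so it did not pass over all genes. Cited1 is on chromosome X, and 1 of the 2 EC-Rbpj-KO arrays has a high Xist signal. The title of that array, replicate 1, also opens with another number than those of the other 3 arrays of the set, and what this number stands for is not stated. Without that array, the log2 fold change was -0.71. A term for Xist in the fit gave the same -0.71, because in this set the term marks only that array. It is therefore no separate check, and the call was lost in both fits. Leaving out wild type replicate 1 gave -0.83 (adjusted p = 0.109) and leaving out wild type replicate 2 gave -0.77 (adjusted p = 0.171), so the call, though not the direction, rests on each of these 3 arrays. The adjusted p was also above the threshold without the variance trend (0.0804). With the t-test named in the study's methods it was 0.362 after Benjamini-Hochberg adjustment, a step those methods do not name. Without that adjustment the t-test called 1 of the 8 members, Cited1, beside 1313 of all tested genes. Of the 353 X-linked genes tested in this comparison besides Xist, Cited1 among them, 5 rose and 9 fell, with a median log2 fold change of 0.01. Over all tested genes, 2% rose and 2.96% fell, with a median of -0.02. These values are no check on the part of sex in the Cited1 value, which was not tested.

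The first of the 3 Cited1 promoter windows, chrX:102252132-102252431 on the minus strand, is shown because Cited1 is the member that passed the test. All windows printed here come from RefSeq on build GRCm38.p6, hold 250 bases before an annotated start and 50 after it, and are written 5′ to 3′ on the strand of the gene. The capitals mark TATAAA, 13 bases before the start, and the window holds no GTGGGAA, the RBPJ motif searched.
Cited1: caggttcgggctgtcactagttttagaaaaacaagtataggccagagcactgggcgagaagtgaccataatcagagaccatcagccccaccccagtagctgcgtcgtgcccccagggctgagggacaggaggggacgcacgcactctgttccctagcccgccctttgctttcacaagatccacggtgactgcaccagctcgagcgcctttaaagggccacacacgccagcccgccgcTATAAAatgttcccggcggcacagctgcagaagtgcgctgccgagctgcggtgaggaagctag

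Foxa3 and Foxa1 were the members with the highest values after loss of RBPJ, and neither passed the test as fitted. FOXA3 is a fork head factor best known from liver and gut endoderm, and its signal was 453 and 550 on the knockout arrays (289 and 196 in wild type). Both mutant arrays lay above both wild type arrays, and the log2 fold change was 1.07 (interval 0.46 to 1.68, unadjusted p = 0.00260, adjusted p = 0.0510). The adjusted p was 0.0468 after quantile normalization, 0.0349 after median centring and 0.0448 with a constant of 16 added, and Foxa3 then passed, as it did without either EC-N1ICD array (0.0332 and 0.0305). It was 0.182 without EC-Rbpj-KO replicate 2, 0.363 without wild type replicate 2 (log2 fold change 0.79), 0.0972 without the variance trend and 0.447 with the test named in the methods. In the N1ICD model the Foxa3 signals of 239 and 135 lay on either side of the wild type signals of 181 and 168, with a log2 fold change of 0.04 (interval -0.57 to 0.65, adjusted p = 0.980). The difference between the models was -1.03 on the log2 scale, with an adjusted p of 0.371. Foxa3 was thus higher on both arrays of 1 model and had no direction in the other, and the difference itself did not pass.

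FOXA1 binds many of the same sites as FOXA2. Its signal was 1063 and 735 on the knockout arrays and 625 and 453 in wild type, with a log2 fold change of 0.73 (interval 0.24 to 1.22, unadjusted p = 0.00708, adjusted p = 0.0885). It passed after quantile normalization (adjusted p = 0.0311), after median centring (0.0335) and without EC-Rbpj-KO replicate 2 (0.0441). The value dropped to 0.47 without EC-Rbpj-KO replicate 1 and to 0.50 without wild type replicate 2. With the Xist term it was the same 0.47, since in this set the term marks only EC-Rbpj-KO replicate 1. Foxa1 did not pass in any of these fits with a lower value. The Foxa1 value was thus above 0 in each of these fits, and its size and its side of the threshold changed with single arrays. On the N1ICD arrays Foxa1 signal was 285 and 322, above both wild type arrays at 230 and 201. The log2 fold change there was 0.49, or 1.41-fold (interval 0.0046 to 0.98, unadjusted p = 0.0482, adjusted p = 0.413). With a term for Xist in the fit this value turned to -0.04. Xist signal follows genotype in this set, so that term was set only by the gap between the 2 EC-Rbpj-KO arrays. Sex and Notch1 activation cannot be told apart here. The Foxa1 difference between the models was -0.24 (adjusted p = 0.838). Foxa1 was thus the one member whose mutant arrays lay above both wild type arrays in both models. Of all tested genes, 23.7% lay higher in this way in the N1ICD model and 23.3% in the knockout. The share that did so in both was not counted.

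FOXA2 acts in anterior visceral endoderm and in definitive endoderm. Foxa2 signal was 2121 and 1374 on the knockout arrays and 1789 and 2272 in wild type, with a log2 fold change of -0.24 (interval -0.73 to 0.25, adjusted p = 0.604). The mutant arrays lay on both sides of wild type replicate 1, and the groups overlapped. Notch1-activated yolk sacs had 749 and 790 (1105 and 799 in wild type), with a log2 fold change of -0.29 (interval -0.78 to 0.21, adjusted p = 0.704). Both mutant arrays were lower, 1 of them by only a few units from the lower wild type array.

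The promoter windows of Foxa1 (chr12:57546062-57546361, minus strand) and Foxa3 (chr7:19023490-19023789, minus strand) are shown for the family members with the highest values. The capitals mark GTAAACA in Foxa1, the fork head motif TGTTTAC read from the other strand, 141 bases before the start, and TATAAA in Foxa3, 36 bases before the start.
Foxa1: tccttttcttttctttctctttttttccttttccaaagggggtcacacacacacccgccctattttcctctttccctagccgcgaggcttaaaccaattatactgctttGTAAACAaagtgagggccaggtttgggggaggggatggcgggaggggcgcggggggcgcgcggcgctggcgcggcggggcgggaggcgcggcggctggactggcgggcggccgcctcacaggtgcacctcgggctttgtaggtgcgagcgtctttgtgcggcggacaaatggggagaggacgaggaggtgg
Foxa3: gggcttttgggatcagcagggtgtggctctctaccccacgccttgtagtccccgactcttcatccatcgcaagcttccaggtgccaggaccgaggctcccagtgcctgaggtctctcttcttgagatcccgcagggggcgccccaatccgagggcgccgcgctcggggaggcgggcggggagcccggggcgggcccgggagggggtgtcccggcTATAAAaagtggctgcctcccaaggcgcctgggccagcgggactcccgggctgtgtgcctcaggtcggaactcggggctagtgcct

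**Figure D2:**
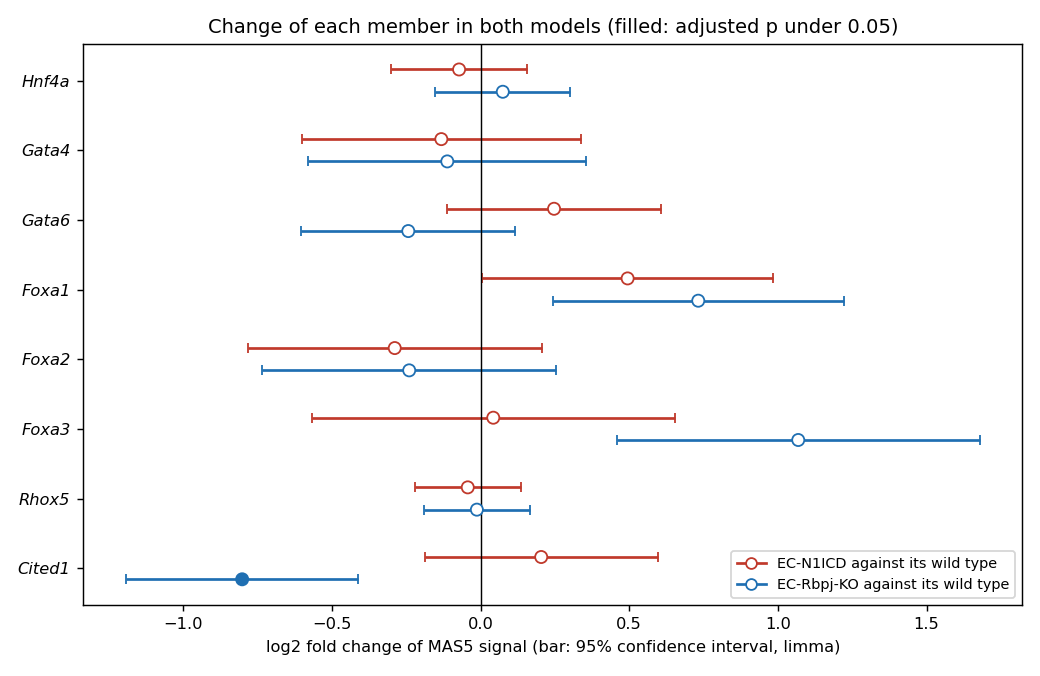
Log2 fold change of MAS5 signal of each gene against the wild type of its set, with 95% confidence intervals from limma, for EC-N1ICD (red) and EC-Rbpj-KO (blue). The filled point, Cited1 in EC-Rbpj-KO at -0.80, is the one with an adjusted p under 0.05, and the intervals of Foxa1 and Foxa3 in EC-Rbpj-KO also lie above 0.

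The factors best known as the core of the visceral endoderm program, HNF4A, GATA4 and GATA6, did not pass in either model. Hnf4a signal was 6948 and 7106 on the knockout arrays and 6615 and 6729 in wild type, with a log2 fold change of 0.07 (interval -0.15 to 0.30, adjusted p = 0.740). The mutant arrays were the higher ones, by a margin inside the interval. Signal in the N1ICD model was 4816 and 4559 (5293 and 4585 in wild type), with a log2 fold change of -0.07 (interval -0.30 to 0.16, adjusted p = 0.862) and overlapping groups. For the probe set used, the knockout interval leaves room for a rise of up to 0.30 or a fall of up to 0.15 on the log2 scale. That of the N1ICD model leaves room for a fall of up to 0.30 or a rise of up to 0.16. The other 3 Hnf4a probe sets lay below the knockout interval, at -0.40, -0.32 and -0.50. Their values in the N1ICD model were 0.26, -0.30 and -0.36.

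Gata4 signal was 418 and 433 on the knockout arrays and 427 and 495 in wild type, with a log2 fold change of -0.11 (interval -0.58 to 0.36, adjusted p = 0.817). After Notch1 activation it was 185 and 222 (268 and 184 in wild type), with a log2 fold change of -0.13 (interval -0.60 to 0.34, adjusted p = 0.884). The groups overlapped in both models. Gata6, by contrast, did not overlap in either. Its signal was 648 and 574 on the knockout arrays and 738 and 706 in wild type, and the log2 fold change was -0.24 (interval -0.60 to 0.12, adjusted p = 0.442). On the N1ICD arrays it was 521 and 557, above 487 and 423 in wild type, and the log2 fold change was 0.25 (interval -0.11 to 0.61, adjusted p = 0.624). The arrays thus lay lower in the loss-of-function and higher in the gain-of-function model, and the difference of 0.49 between the models (interval -0.018 to 0.999) had an adjusted p of 0.486.

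Rhox5 had the narrowest intervals of the 8 genes. Its signal was 15123 and 15519 on the knockout arrays and 14755 and 16182 in wild type, with a log2 fold change of -0.01 (interval -0.19 to 0.17, adjusted p = 0.956). The N1ICD arrays had 16382 and 16788 (16027 and 18216 in wild type), with a log2 fold change of -0.04 (interval -0.22 to 0.14, adjusted p = 0.904). The mutant arrays lay between the wild type arrays in both models, and the intervals reach no further than 0.22 on the log2 scale. The sign turned in the N1ICD model after quantile normalization (0.031) and in the knockout after median centring (0.060). Rhox5 is X-linked, and the arrays with a high Xist signal, at 15123, 16382 and 16788, lay within the range of the others, 14755 to 18216. The Rhox5 window at chrX:37754358-37754657 (plus strand) is shown because it is the one member window with the RBPJ motif GTGGGAA, in capitals, 244 bases before the start.
Rhox5: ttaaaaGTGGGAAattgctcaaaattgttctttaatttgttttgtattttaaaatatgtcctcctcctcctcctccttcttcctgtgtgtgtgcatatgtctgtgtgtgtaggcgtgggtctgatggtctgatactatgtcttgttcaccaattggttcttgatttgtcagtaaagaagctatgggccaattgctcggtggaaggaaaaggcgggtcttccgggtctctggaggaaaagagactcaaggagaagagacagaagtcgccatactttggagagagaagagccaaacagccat

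With Notch1 signaling expanded in the N1ICD model, no member passed the test, and all tested genes also had fewer calls there (65) than in the knockout (541). None of the 8 had an adjusted p under 0.05 in limma, against 0.596% of all tested genes (0.376% higher, 0.22% lower). At an unadjusted p under 0.05 there was 1 of 8, Foxa1, against 12% of all tested genes, and the test named in the study's methods called 0 of 8 with or without adjustment. The median log2 fold change of the members was -0.00016, against 0.01 over all tested genes. Arrays that did not overlap were seen for 3 members, higher for Gata6 and Foxa1 and lower for Foxa2, which is close to the background of 42.6% of tested genes (23.7% higher, 18.9% lower). In the knockout they were seen for 5 members, higher for Hnf4a, Foxa1 and Foxa3 and lower for Gata6 and Cited1, against a background of 50.8% (23.3% higher, 27.5% lower). Neither share of the members stands far from its background.

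For the difference between the models, 0 of 8 members had an adjusted p under 0.05 in limma, against 0.266% of all tested genes (0.211% higher, 0.055% lower). At an unadjusted p under 0.05 there were 2, Cited1 and Foxa3, against 10.8%. The models share no control array, so this contrast sets each mutant against its own wild type.

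The other probe sets of 3 members gave a mixed picture. A single probe set was on the array for 5 of the 8 genes, and the members had 14 probe sets in all. The used probe set of Hnf4a had a log2 fold change of 0.07 in the knockout, whereas its other 3 had values of -0.40, -0.32 and -0.50. In the N1ICD model these 3 had values of 0.26, -0.30 and -0.36, beside -0.07 for the used one. The mean of all Hnf4a probe sets was -0.29 in the knockout, so the sign for Hnf4a turns on which is read. Gata6 had a value of -0.35 in the knockout on its second probe set, beside -0.24 on the used one, and -0.06 beside 0.25 in the N1ICD model. The other Gata4 probe set, with signals of 20 to 58, and the third of Gata6, with signals of 17 to 53, lay near the array medians.

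**Figure D3:**
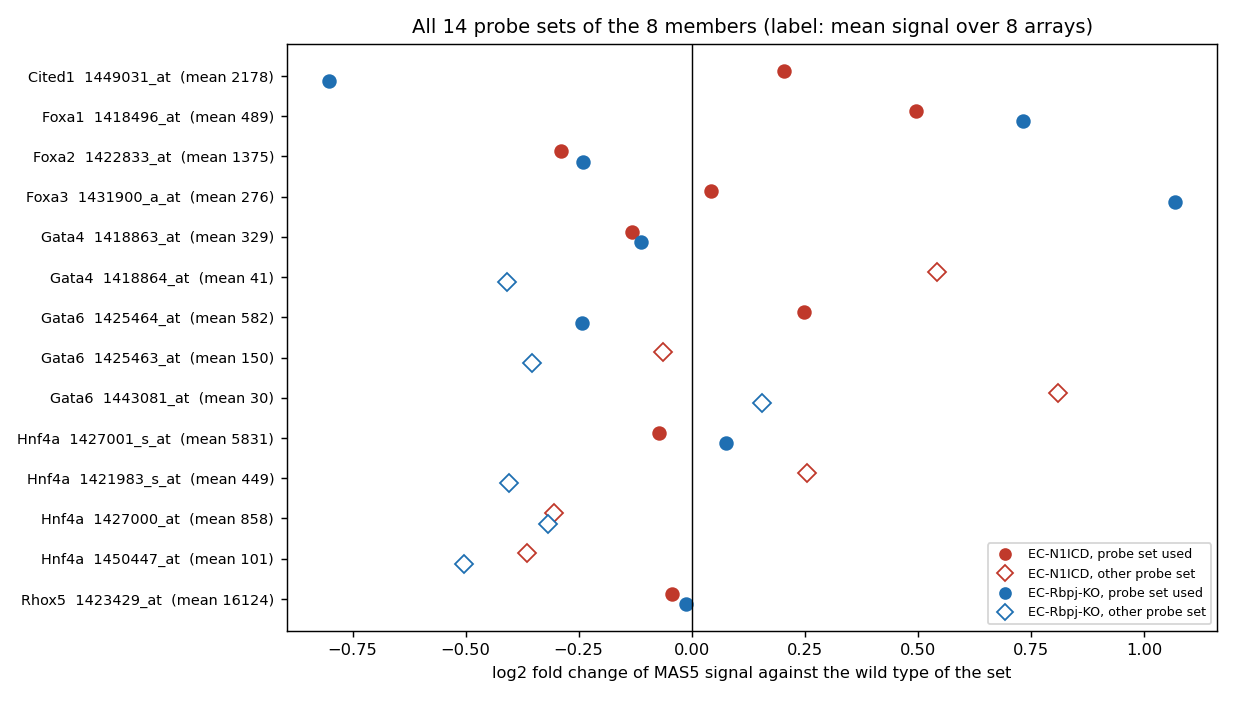
Log2 fold change of MAS5 signal for all 14 probe sets of the 8 genes, with filled circles for the probe set used, open diamonds for the others, EC-N1ICD in red and EC-Rbpj-KO in blue. The used Hnf4a probe set lies at 0.07 in EC-Rbpj-KO and its other 3 lie between -0.50 and -0.32.

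The wild type groups of the 2 sets differed from each other for most members. As deposited, 7 of 8 members were higher on both wild type arrays of the knockout set than on both of the N1ICD set, beside 69.9% of all tested genes that did not overlap (46.5% higher, 23.4% lower). The ratio of geometric mean signals was 2.47 for Foxa1, 2.15 for Foxa2, 2.07 for Gata4, 1.59 for Gata6, 1.48 for Cited1, 1.36 for Foxa3 and 1.35 for Hnf4a. Rhox5, at 0.904, overlapped. The median over all tested genes was itself 0.17 on the log2 scale between these groups and went to -0.12 after median centring. On that scale 6 members were higher and 1, Rhox5, was lower (all tested genes, 28.3% and 43.9%), and the members' median went from 0.62 to 0.32. After quantile normalization 6 were higher and 0 lower (all tested genes, 33.3% and 37.7%), with a median of 0.37, against -0.034 over all tested genes. Strain, array set and the closing number of the sample titles, which is the same within a set, cannot be told apart here, so no test was made.

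The order of the groups differed between members. Gata6 and Foxa1 separated all 4 groups with no overlap. The share of all tested genes that did so was not counted. Of these, 42.6% did not overlap within the N1ICD set, 50.8% within the knockout set and 69.9% between the wild type groups. Gata6 signal went from wild type of the EC-N1ICD set through EC-N1ICD and EC-Rbpj-KO to wild type of the EC-Rbpj-KO set. Foxa1 signal went from wild type of the EC-N1ICD set through EC-N1ICD and wild type of the EC-Rbpj-KO set to EC-Rbpj-KO. Gata4, Foxa2 and Hnf4a separated the 2 sets, and inside a set the neighbouring groups overlapped for Gata4 in both sets, for Foxa2 in the EC-Rbpj-KO set and for Hnf4a in the EC-N1ICD set. Foxa3 had its highest group, EC-Rbpj-KO, above all other arrays. Cited1 had its highest group in wild type of the EC-Rbpj-KO set, and its other 3 groups lay between 1537 and 2360. Wild type of the EC-N1ICD set overlapped both EC-N1ICD and EC-Rbpj-KO there, and those mutants did not overlap each other. Since each probe set has its own brightness, signals were not compared between genes.

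Other transcription factors of endoderm showed 2 calls among those tested, both after loss of RBPJ. Of 18 listed factors, 16 were on the array and 10 were tested, with 1 that rose, 1 that fell and a median log2 fold change of 0.07 in the knockout. Sox17, an endoderm factor that is also made in arterial endothelium, had signals of 454 and 411 (157 and 174 in wild type) and rose by 1.39 on the log2 scale (adjusted p = 0.00186). Xbp1, a factor of secretory cells, had signals of 6902 and 6711 (9855 and 9030 in wild type) and fell by 0.47 (adjusted p = 0.0140). Eomes, a T-box factor of early endoderm and trophoblast, was too dim on average to be tested. It had signals of 20 and 21 in the knockout and 116 and 112 in wild type, with a log2 fold change of -2.48, and of 23 and 22 in the N1ICD model and 49 and 59 in wild type, with one of -1.26. It was named after its values were seen, both mutant groups lay below the array medians, where background limits the size of a fold change, and no call was made. Nr1h4, the bile acid receptor FXR, had a log2 fold change of -0.75 (adjusted p = 0.0814). In the N1ICD model, 0 of the 10 passed (1 at an unadjusted p under 0.05, Xbp1 at -0.21), Sox17 had a value of 0.35 and Maf one of -0.31, and the median was -0.06.

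Among 13 cofactors and partners of these factors, 10 were tested. Ppargc1a, a coactivator of HNF4A and other nuclear receptors, had signals of 61 and 75 in the N1ICD model (180 and 166 in wild type) and fell by 1.35 on the log2 scale (adjusted p = 0.0156). It was the one call of the list in either model. Cited4, a relative of Cited1, had values of -1.78 in the N1ICD model (adjusted p = 0.0531) and -1.005 in the knockout (adjusted p = 0.143). Zfpm1, the GATA cofactor FOG1, had a value of -1.37 in the N1ICD model (adjusted p = 0.175). The general coactivators had values of -0.24 for Crebbp and -0.37 for Ep300 in the knockout, with adjusted p of 0.392 and 0.336.

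Relatives of the members with main sites in other cells included 1 call. Rhox6, a neighbour of Rhox5 in the Rhox cluster that is made in placenta, had signals of 2458 and 1800 in the knockout (1114 and 1100 in wild type) and rose by 0.93 on the log2 scale (adjusted p = 0.0115). Rhox9, of the same cluster, had signals of 541 and 360 (228 and 215 in wild type), a value of 0.995 (adjusted p = 0.0680). Both lay above wild type on the array with a high Xist signal and on the other one. Foxo1 had a value of 0.43 and Gata2 one of 0.29 in the knockout, with adjusted p of 0.196 and 0.543. Gata1, the erythroid GATA factor, had signals of 245 and 705 in the N1ICD model (939 and 922 in wild type), a value of -1.16 (adjusted p = 0.247). Of the 7 relatives tested, 0 passed in the N1ICD model and 1 rose in the knockout.

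The secreted and endocytic products of visceral endoderm include many known targets of HNF4A and the FOXA factors. Their median log2 fold change was -0.10 in the knockout and -0.03 in the N1ICD model. Of 21 tested, 0 rose and 2 fell in the knockout (all tested genes, 2% and 2.96%), and 6 had values above 0. At an unadjusted p under 0.05, 6 were lower and 0 higher, beside 1263 lower and 912 higher of all 10913 tested genes. The 2 that fell encode endocytic receptors of the apical surface: Cubn fell by 0.34 (adjusted p = 0.0324) and Lrp2 fell by 1.16 (adjusted p = 0.0156). Vil1, of the microvilli, had a value of -0.55 (adjusted p = 0.0696). In the N1ICD model, 0 of 21 passed in limma, 2 were higher and 2 lower at an unadjusted p under 0.05, and the median was -0.03. The apolipoproteins Apoa2 and Apoa4 had values of -0.35 and -0.24 there (adjusted p of 0.202 and 0.265), and Vil1 had one of 0.40 (adjusted p = 0.317). Summed signals of this list ran from 247890 to 256036 in the N1ICD model and from 257640 to 258680 in its wild type. In the knockout they were 252152 and 271355, against 273926 and 291041 in its wild type. The brightest genes weigh most in these sums. Afp, at 28320 and 29705, was the highest signal on the knockout arrays, as Ttr was on their wild type arrays (27807 and 29993). Whether signals this high are compressed was not tested.

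**Figure D4:**
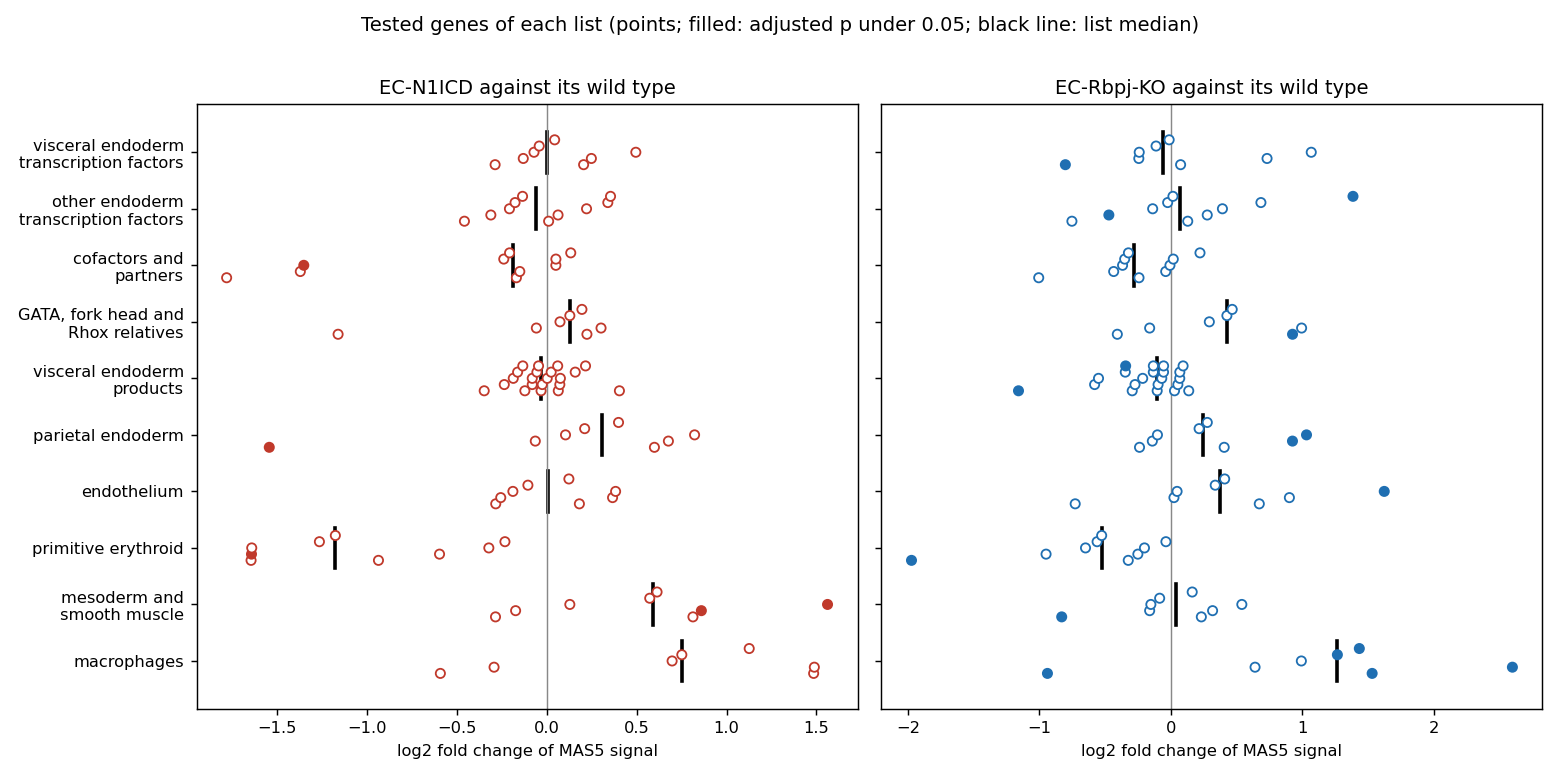
Log2 fold change of MAS5 signal of the tested genes of each list (points) in EC-N1ICD (left, red) and EC-Rbpj-KO (right, blue), with filled points for an adjusted p under 0.05 and a black line at the median of the list. In EC-N1ICD and EC-Rbpj-KO, the 8 transcription factors have medians of -0.00016 and -0.06 and the visceral endoderm products of -0.03 and -0.10. The erythroid medians are -1.18 and -0.53 and the macrophage medians are 0.75 and 1.27.

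Markers of other cells moved with both models, and their part in the values above was not tested. Of 8 genes of parietal endoderm, which also makes GATA4, GATA6 and Sox17, 2 rose in the knockout (Plat by 1.03 and Pth1r by 0.93) and 1 fell in the N1ICD model (Thbd by 1.55). In that model 6 of 8 had values above 0, the median was 0.30, and 4 were higher at an unadjusted p under 0.05 (Lama1 0.82, Plat 0.68, Pth1r 0.60 and Col4a2 0.40). None of these 4 passed in limma (adjusted p for Plat, Pth1r and Col4a2 of 0.213, 0.212 and 0.393, and for Lama1 lower but also above the threshold). Their summed signals were 33619 and 31614 in the knockout (27280 and 28148 in wild type), and 22110 and 22837 in the N1ICD model (22181 and 17719 in wild type). Both knockout sums thus lay above both wild type sums, and the N1ICD sums did not separate. The knockout gap rests largely on Col4a1, at 14671 and 14492 (11991 and 13153 in wild type), and Sparc, at 7703 and 5731 (5103 and 4925). Neither passed in limma (adjusted p of 0.360 and 0.183). In the macrophage list 4 of 7 rose in the knockout (Adgre1, Csf1r, Cx3cr1 and Tyrobp) and Cd68 fell. The summed signals were 3367 and 2802 (1572 and 1063 in wild type), most of it from Csf1r at 2497 and 1935 (965 and 599). The macrophage sums were higher than wild type on every mutant array of both models. None of them passed in the N1ICD model in limma, where 4 were higher at an unadjusted p under 0.05 and the summed signals were 2125 and 1593 (1200 and 1201 in wild type). All 9 erythroid genes had values below 0 in both models. Tfrc, the transferrin receptor, was the one that passed, falling by 1.64 in the N1ICD model and by 1.97 in the knockout, and the sums were 48434 and 82736 (95510 and 101126 in wild type), and 54490 and 66944 (71316 and 69111 in wild type). Every mutant array thus had a lower erythroid sum than both of its wild type arrays.

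Of 8 endothelial genes, Cldn5 rose in the knockout (by 1.62) and none passed in the N1ICD model. The summed endothelial signals were 3556 and 2480 in the knockout (2130 and 2082 in wild type), and 3420 and 3266 in the N1ICD model (3905 and 2890 in wild type). Both knockout sums lay above both wild type sums here too, but this rests largely on Cldn5, at 1095 and 715 (302 and 273 in wild type). Of the 8 tested, 7 had values above 0 in the knockout (median 0.37). Tek was the 1 below, at 187 and 181 (276 and 336 in wild type), with a log2 fold change of -0.73 (adjusted p = 0.103 in limma). Tagln and Myl9 of mesoderm and smooth muscle rose in the N1ICD model (by 1.56 and 0.86), Actc1 of cardiac muscle rose there (by 2.38), and Pdgfra fell in the knockout (by 0.83). The sums for mesoderm and smooth muscle were 21749 and 20078 in the N1ICD model (11490 and 12790 in wild type), and 5375 and 6017 in the knockout (5321 and 5203 in wild type). Of the 3 trophoblast genes tested none passed, and Plac1 had a value of 1.505 in the N1ICD model (adjusted p = 0.108). The members' own sums were 25524 and 25493 in the N1ICD model (wild type, 25951 and 26165) and 28311 and 28040 in the knockout (wild type, 28036 and 29953). Rhox5 and Hnf4a make up most of these sums.

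The ratio of 3′ to 5′ signal of Actb, a sign of RNA quality, was lower on both EC-N1ICD arrays (1.72 and 1.75) than on their wild type (2.10 and 2.34). For the knockout it was 2.29 and 2.09, higher than on its wild type arrays (1.90 and 1.84). That of Gapdh was 2.43 and 2.48 on the N1ICD arrays against 3.12 and 2.76, and it did not separate the knockout (4.64 and 3.45) from wild type (3.17 and 3.51), where EC-Rbpj-KO replicate 1 stood apart at 4.64. The part of RNA quality in the member values was not tested.

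Genes most alike to each member were found by Pearson's correlation of log2 signals over the 8 arrays, which share 2 sets that differ in strain, so these values are descriptions. Hnf4a was closest to Scaf1 (0.997), Mmp14 (0.994) and Gaa (0.994), and Gata4 to Traf4, Ncln and Card10 (each 0.995). The nearest to Gata6 were Zmiz1 (0.993), Zc3h13 (0.987) and Psap (0.983). Foxa1 was closest to Lims1 (0.992), Snrk (0.991) and Utrn (0.990), Foxa2 to Gga3 (0.996), Nenf (0.996) and Gak (0.993), and Foxa3 to Trim15 (0.972), Niban1 (0.970) and Paqr4 (0.968). For all of these except the genes near Foxa3, the correlation was above 0.98. Rhox5 was closest to Rps7 (0.965), Cox5b (0.941) and Nsun5 (0.925), and Cited1 to Fbxo42 (0.974), Ruvbl1 (0.964) and Cnot9 (0.945).

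Between members, the highest correlations were those of Hnf4a with Gata4 (0.963) and of Gata4 with Foxa2 (0.949), and after the mean of each set was subtracted they were 0.546 and 0.643. Much of the likeness of these members over the 8 arrays thus lay between the sets. Cited1 was closest to Gata6 on both scales (0.482 and 0.735).

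Promoter windows were on hand for 6 of the 8 genes, 11 windows in all, and were searched on both strands for 5 short motifs. GTGGGAA, the RBPJ motif, was in 1 of the 11 (Rhox5) and in 6.38% of all 32851 windows. The GATA motif searched, AGATAA, was in 2 (the first of Hnf4a, 52 bases before the start, and the third of Foxa2, 183 bases before) and in 11.2% of all. TGTTTAC, a fork head motif, was in 1 (Foxa1) and in 3.65% of all, and CAAAGTCCA, an HNF4 motif, was in none and in 0.475% of all. TATAAA was in 4, of Foxa3, Cited1 and Foxa2, and in 13.6% of all. No motif overlapped another in these windows. Cited1 had the RBPJ letters in 0 of its 3 windows, as most windows of any gene do. Sites outside these windows were not searched, so whether RBPJ acts on Cited1 was not tested.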

How the data were processed

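RNA of 8 yolk sac samples in 4 groups of 2 was hybridised to Affymetrix mouse arrays (45101 probe sets). The authors deposited 1 MAS5 signal intensity per probe set and array, on a linear scale. Version, scaling target and genome build are not given in the sources used here. Groups came from source names, genotype labels and sample titles. The labels do not say that samples of a group came from separate litters, so the arrays of a group may not be independent. The p-values may then not cover the spread between litters. The members and gene lists were chosen with earlier results of these data known. Probe sets with 1 gene in the platform annotation (34958) were kept, the brightest per gene was used, and genes past the 40th percentile of mean signal (68 or more) were tested. The test was limma 3.58.1 (R 4.3.3) on log2 values in 1 fit of 4 groups, eBayes with trend (degrees of freedom, 4 residual and 7.37 prior). P-values were two-sided and adjusted by Benjamini-Hochberg over 10913 genes (threshold 0.05). An exact permutation test of 2 arrays against 2 gives no p under 0.333, so none was used. The number of arrays limits the precision, and background limits dim genes. The text names all members, list genes past the threshold, genes among the 3 with the smallest p of a list and check genes on the array. It also names the 3 genes most alike to each member. The fit was tested on simulated data. Promoter windows were matched by symbol. Alternatives changed scaling, filter, constant, probe set rule, variance trend or arrays, added an Xist term, or used the test named in the study's methods.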

Additional observations from a re-analysis of the deposited data

How the results depend on the processing

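In EC-N1ICD and for the difference between the models, 0 members passed the threshold in any alternative run. In EC-Rbpj-KO, where 1 member passed, 3 passed after quantile normalization and after median centring (Cited1, Foxa1 and Foxa3), 2 with a constant of 16 added, and 0 without the variance trend, with a term for Xist in the fit or with the test named in the methods after adjustment. The count ran from 0 to 2 over the fits that left out 1 array. It was 0 without EC-Rbpj-KO replicate 1 or either wild type array of that set, and 2 without EC-Rbpj-KO replicate 2 or either EC-N1ICD array. Cited1 kept its direction throughout, from -0.90 to -0.71 over the fits that left out 1 array. Its adjusted p was 0.0804 without the trend and 0.362 with the named test, which it passed without adjustment. Foxa3 was below the filter at the 60th percentile. The cause of these changes was not tested. Values that turned their sign were those of Gata4 in EC-N1ICD (0.21), Hnf4a in EC-Rbpj-KO (-0.29) and their differences between the models (Hnf4a 0.17, Gata4 0.47) with the mean of all probe sets. With the Xist term they were those of Foxa1 in EC-N1ICD (-0.038), Rhox5 in EC-Rbpj-KO (0.0062) and the Gata4 difference (0.0054). That term is set only by the gap between the 2 EC-Rbpj-KO arrays. Rhox5 also turned in EC-N1ICD (0.031) and in its difference (0.063) after quantile normalization, and in EC-Rbpj-KO (0.060) after median centring. Over the fits that left out 1 array, signs turned in EC-N1ICD for Hnf4a (-0.18 to 0.031), Gata4 (-0.40 to 0.14), Foxa3 (-0.37 to 0.45), Rhox5 (-0.14 to 0.049) and Cited1 (-0.081 to 0.49). In EC-Rbpj-KO they turned for Foxa2 (-0.55 to 0.073) and Rhox5 (-0.079 to 0.054). For the difference they turned for Gata4 (-0.29 to 0.25), Foxa1 (-0.50 to 0.029), Foxa2 (-0.36 to 0.26) and Rhox5 (-0.12 to 0.062). None of these values had passed the threshold.

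Counts over all tested genes depended on the settings. In EC-N1ICD, 65 genes passed, against 118 after quantile normalization, 106 after median centring, 103 with the 4 arrays of the set alone, 27 at the 60th percentile, 15 with the Xist term, 0 and 939 with the named test with and without adjustment, and 7 to 140 when 1 array was left out. In EC-Rbpj-KO, 541 passed, against 266 with the 4 arrays of the set alone, 1 and 1313 with the named test, and 147 to 628 when 1 array was left out. For the difference, 29 passed, against 17 with the mean of all probe sets, 71 with the Xist term, 3 without the trend and 5 to 80 when 1 array was left out. In EC-Rbpj-KO 218 genes were higher and 323 lower, against 375 and 300 after median centring, 357 and 303 after quantile normalization and 136 and 478 with the Xist term. No paired analysis was possible because the labels give no replicate numbers, and the numbers used here only name samples. The sample titles open with a number of unstated meaning, which differs for replicate 1 of each mutant and is shared by the other 3 arrays of its set. The arrays that share it are those of the fits without EC-N1ICD replicate 1 and without EC-Rbpj-KO replicate 1, given above.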
